A study of Mus musculus with 12 samples.

Results

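Tuft cells are rare chemosensory epithelial cells, and a tuft-like population is also found in the thymic medulla. They sense their surroundings with the signalling cascade of taste cells. A taste receptor or another G protein-coupled receptor acts through the G protein subunits Gnat3 and Gng13 on the phospholipase Plcb2, and the calcium released opens the cation channel Trpm5. The lineage depends on the POU-domain transcription factor Pou2f3, and its cells release mediators such as the cytokine Il25 and acetylcholine, which choline acetyltransferase (Chat) makes.

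Here 10 tuft cell genes (Pou2f3, Trpm5, Dclk1, Avil, Il25, Gnat3, Gng13, Plcb2, Chat and Sh2d6) were described in 12 RNA-seq libraries of mouse thymic epithelial cells (TEC). The genes were chosen from known tuft cell markers with earlier values of these libraries in view, so their levels over the groups are a description and carry no test. All 10 were found among the 34547 genes measured. A further 112 tuft cell genes, from 5 lists of taste receptors, taste transduction, transcription factors, effectors and other signature genes, were tested. These lists too were drawn up with earlier results of the libraries known, so their tests are not independent evidence.

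Cortical TEC (cTEC, sorted as Epcam+CD45-Ly51+UEA1-) and medullary TEC (mTEC, sorted as Epcam+CD45-Ly51-UEA1+) came from C57BL/6 wild-type mice (WT) or from Aβ0/0 mice, a model without MHC class II antigens whose name refers to the β chain gene H2-Ab1. Each of the 4 groups had 3 libraries, and each library was made from a pool of 5 to 10 mice of 4 to 6 weeks of age. The WT mice were bought from a supplier and the Aβ0/0 mice came from another laboratory, so source and genotype cannot be told apart. The number of sorted mTEC was lower for every Aβ0/0 pool than for the WT pools, and input and genotype cannot be told apart either. Fewer cTEC than mTEC were sorted from every pool, so input and subset cannot be told apart. In a sorted bulk population, fewer tuft cells and less RNA per tuft cell cannot be distinguished.

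The libraries held 21710319 to 36139815 estimated counts. H2-Ab1 was at 9055, 9640 and 9150 TPM (transcript abundance scaled to transcript length and library total) in the cTEC of WT mice and at 3153, 3956 and 3491 TPM in those of Aβ0/0 mice. In mTEC, H2-Ab1 was at 11510, 11970 and 11670 TPM in WT and at 2469, 3541 and 3177 TPM in Aβ0/0 libraries. The gene was thus lower in all 6 Aβ0/0 libraries, without being at 0. The summed level of 10 mTEC markers was 3017 to 4088 TPM in mTEC and 1299 to 2055 TPM in cTEC. That of 9 cTEC markers was 1847 to 2635 TPM in mTEC and 9216 to 26916 TPM in cTEC, so each subset was highest in its own markers.

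All 10 genes had the same order of group means in TPM, which rose from cTEC of WT mice over cTEC of Aβ0/0 mice and mTEC of WT mice to mTEC of Aβ0/0 mice. The medians of 3 libraries kept this order for only 3 of the 10 genes (Pou2f3, Trpm5 and Sh2d6), and the median in Aβ0/0 mTEC was above that in WT mTEC for 5 of 10. In the deposited rlog values (a log2 scale), Dclk1, Avil and Gng13 had the higher mean in WT cTEC, and Il25 and Chat had the higher mean in WT mTEC. The step from cTEC to mTEC was thus common to the genes, while the sign of the step between genotypes in mTEC depended on a single library in 7 of the 10. The library numbered 1 had the highest level of its group in 36 of the 40 combinations of gene and group.

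**Figure D1:**
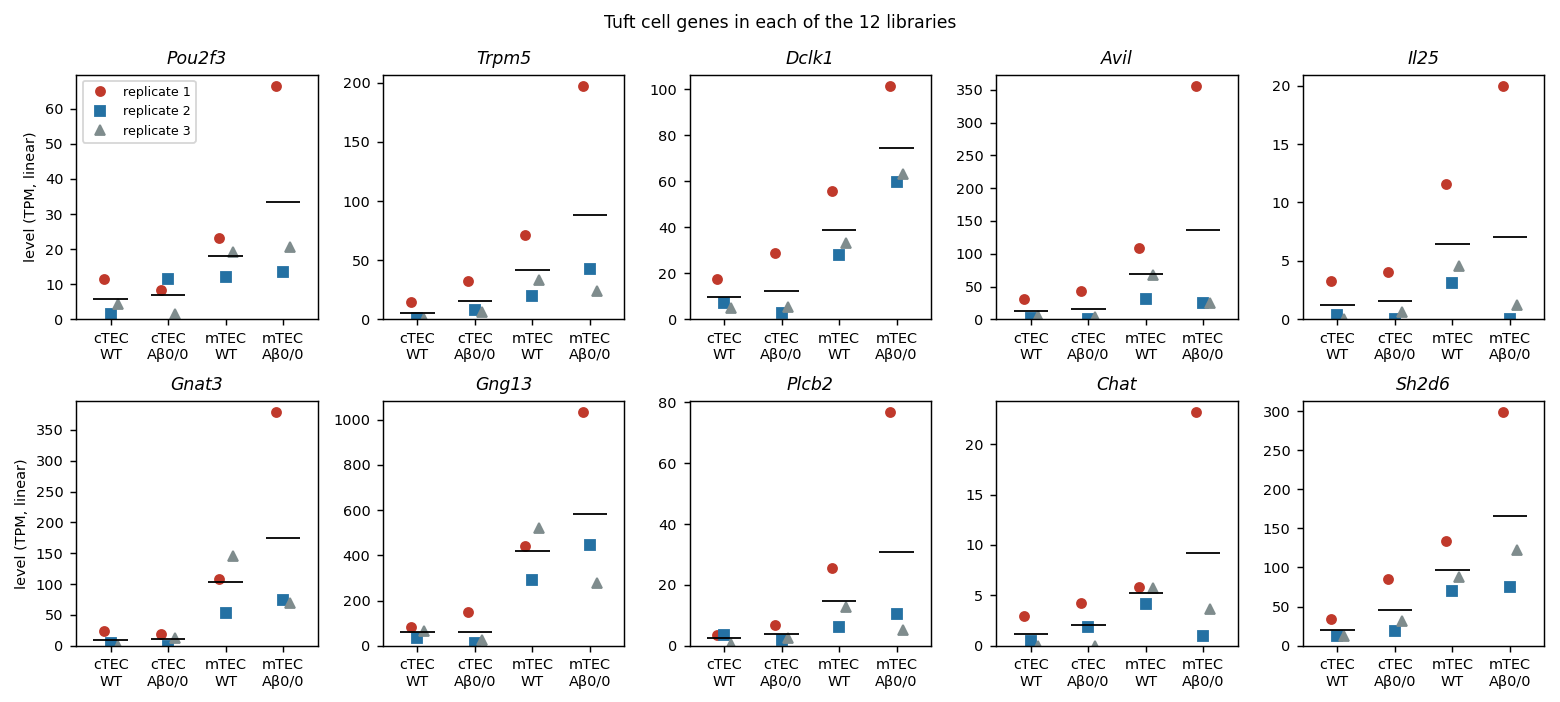
Level in TPM (linear axis from 0) of each of the 10 tuft cell genes in every library. Points are libraries, coloured by replicate number, and the black bar is the mean of the 3 libraries of a group. In the Aβ0/0 mTEC, replicate 1 was the highest of the 3 libraries for all 10 genes, and it lifted the group mean.

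Pou2f3 (chromosome 9, 43123939 to 43210369, minus strand, GRCm38), the transcription factor of the lineage, was at 11.6, 1.45 and 4.49 TPM in the cTEC of WT mice and at 8.31, 11.4 and 1.41 TPM in those of Aβ0/0 mice. In mTEC it was at 23.3, 11.95 and 19.2 TPM in WT and at 66.5, 13.4 and 20.5 TPM in Aβ0/0 libraries. Every WT mTEC library was above all 6 cTEC libraries. The genotypes overlapped in both subsets, and replicate 1 alone set the Aβ0/0 mTEC apart.

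Gnat3 (chromosome 5, 17962549 to 18019834, plus strand), the α subunit gustducin of the taste G protein, had the steepest step between the subsets with all libraries. It was at 23.2, 4.82 and 0.0638 TPM in the cTEC of WT mice and at 19.6, 0.02805 and 12.6 TPM in those of Aβ0/0 mice. In mTEC it was at 108.5, 53.4 and 146.3 TPM in WT and at 378.4, 74.2 and 69.3 TPM in Aβ0/0 libraries. No mTEC library fell to the level of a cTEC library. WT mTEC exceeded WT cTEC by a log2 fold change of 3.72 (SE 1.24), and Aβ0/0 mTEC exceeded Aβ0/0 cTEC by 4.25 (SE 1.41). Without the libraries numbered 1, Gnat3 (3.82) was below Gng13 (4.58) and Avil (4.02) in Aβ0/0 mice. In WT mice Gnat3 was then at 5.61, beside 5.62 for Trpm5.

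Gng13 (chromosome 17, 25717171 to 25719406, plus strand), the γ subunit that pairs with gustducin, was the most abundant of the 10 genes per length, with 40.5% to 59.6% of their summed TPM in the mTEC libraries. Its level was 83.5, 31.9 and 66.1 TPM in the cTEC of WT mice and 147.1, 11.9 and 24.8 TPM in those of Aβ0/0 mice. In mTEC it reached 442.5, 290.5 and 520.2 TPM in WT and 1033, 445.2 and 275.5 TPM in Aβ0/0 libraries. All mTEC libraries lay above all cTEC libraries. The log2 fold change of mTEC over cTEC was 2.74 (SE 0.44) in WT and 3.51 (SE 0.91) in Aβ0/0 mice. Gng13 shares 399 exon bases with Chtf18 on the opposite strand, and Chtf18 was at 3.11 to 9.76 TPM in mTEC.

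Plcb2 (chromosome 2, 118707517 to 118728438, minus strand), the phospholipase downstream of the receptors, was low. It was at 3.49, 3.50 and 0.421 TPM in the cTEC of WT mice and at 6.75, 1.84 and 2.62 TPM in those of Aβ0/0 mice. In mTEC its level was at 25.5, 6.10 and 12.7 TPM in WT and at 76.7, 10.3 and 5.09 TPM in Aβ0/0 libraries. The subsets did not overlap in WT mice, but in Aβ0/0 mice the lowest mTEC library lay under the highest cTEC library.

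Trpm5 (chromosome 7, 143069153 to 143094642, minus strand), the channel that depolarises the cell, was at 14.9, 1.28 and 0.132 TPM in the cTEC of WT mice and at 32.3, 7.60 and 6.59 TPM in those of Aβ0/0 mice. The mTEC libraries were at 71.0, 19.9 and 33.3 TPM in WT and at 197.1, 42.4 and 24.2 TPM in Aβ0/0 libraries. Here too the subsets were apart in WT mice and overlapped in Aβ0/0 mice. Kallisto put 71.4%, 63.5% and 74.7% of the Trpm5 counts of the WT mTEC libraries on the coding transcript Trpm5-201. The corresponding shares in Aβ0/0 mTEC were 76.3%, 22.1% and 58.4%. In replicate 2 of the Aβ0/0 mTEC, 65.6% of the counts fell on the retained-intron transcript Trpm5-202, so Trpm5-201 was there at 4.69 TPM of the 42.4 TPM of the gene. Trpm5 also shares 220 exon bases with Tssc4 on the opposite strand, which was at 33.4 to 55.0 TPM in mTEC.

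POU factors of the Pou2f3 class bind the octamer ATGCAAAT, so the promoter windows were searched for it on both strands. RefSeq windows (GRCm38.p6, 250 bases before to 50 bases after a start) were found for 8 of the 10 genes, with Pou2f3 and Il25 unmatched. None of their 10 windows held the octamer, nor ATGCNAAT, where N is any base. As the channel at the end of the cascade, Trpm5 is shown with its window at chr7:143094593-143094892, read on the minus strand, in lower case since it holds no match.
Trpm5: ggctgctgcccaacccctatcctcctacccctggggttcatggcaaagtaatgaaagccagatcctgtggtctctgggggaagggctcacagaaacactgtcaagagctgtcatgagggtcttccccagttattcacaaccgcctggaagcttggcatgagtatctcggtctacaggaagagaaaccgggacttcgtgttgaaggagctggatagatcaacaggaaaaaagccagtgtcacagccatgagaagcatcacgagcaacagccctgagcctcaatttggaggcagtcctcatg

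The octamer was found in 15 of 111 windows of the other tuft cell lists (13.5%), against 570 of all 32851 windows (1.74%). It was in 7 of 34 windows of taste receptors, in 3 of 9 of taste transduction (Itpr3, Rgs21 and Sucnr1), in 2 of 14 of effectors (Hpgds and Il4ra), in 3 of 46 of the signature list and in 0 of 8 of transcription factors. ATGCNAAT, which includes the octamer, was in 17 of the 111 windows (15.3%) and in 1035 of all windows (3.15%). Taste receptor windows had a median A and T content of 62.7%, transduction windows of 49.7% and effector windows of 42.8%, against 47.3% over all windows. Taste receptor genes also lie in clusters of related copies, which are not independent.

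Of the 15 windows with the octamer, the 5 below belong to genes that passed as higher in WT mTEC than in WT cTEC. Of all list genes tested, 31 of 93 passed so, and a link between octamer and level was not tested. The 5 windows were picked after the values were seen, and Kctd12 falls outside the naming rule. Each 30-base stretch is read 5′ to 3′ on the strand of the gene, with the octamer, or its reverse complement, in capitals.
Hpgds (chr6:65144886-65144915, minus strand): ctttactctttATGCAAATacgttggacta
Kctd12 (chr14:102982779-102982808, minus strand): cagcgtttagcATGCAAATgcattccccgc
Rgs21 (chr1:144567849-144567878, minus strand): catatgaagccATGCAAATacgaccttcag
Sucnr1 (chr3:60081810-60081839, plus strand): ggctgcataatATGCAAATcagactgcact
Tas2r118 (chr6:23970166-23970195, minus strand): gtgtaaggaggATTTGCATccacaaagaag

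Dclk1 (chromosome 3, 55242364 to 55539068, plus strand), a microtubule-associated kinase used to mark tuft cells, was at 17.8, 7.22 and 4.82 TPM in the cTEC of WT mice and at 29.0, 2.68 and 5.54 TPM in those of Aβ0/0 mice. The mTEC libraries were at 55.9, 28.1 and 33.1 TPM in WT and at 101.5, 59.5 and 63.1 TPM in Aβ0/0 libraries. Dclk1 was the only one of the 10 genes whose WT and Aβ0/0 mTEC libraries did not overlap, and all 3 Aβ0/0 libraries were higher, where 24.5% of all genes had separate genotypes in mTEC. Its log2 fold change of WT over Aβ0/0 mTEC was -0.90 (SE 0.24), and it was -0.91 (SE 0.24) without the libraries numbered 1.

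Dclk1 has 15 annotated transcripts, and their estimates did not follow one pattern. Transcripts from the first start held 69.7%, 82.1% and 77.2% of the Dclk1 counts in WT mTEC and 54.3%, 67.7% and 78.6% in Aβ0/0 mTEC. The share of the 7 transcripts from the second, internal start was 18.6%, 4.17% and 12.8% in WT and 34.4%, 10.5% and 9.82% in Aβ0/0 mTEC. The groups overlapped in both shares. Dclk1-203, which begins at the first start and ends early, was at 6.63, 7.09 and 8.58 TPM in WT and at 8.54, 12.4 and 17.7 TPM in Aβ0/0 mTEC. It was thus lowest in the library numbered 1 of both groups, the reverse of the gene as a whole. The full-length Dclk1-201 was at 4.95, 2.22 and 2.73 TPM in WT and at 4.28, 1.24 and 1.82 TPM in Aβ0/0 mTEC.

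Avil (chromosome 10, 127000709 to 127020994, plus strand), advillin, an actin-binding protein of the apical tuft, was at 31.5, 2.25 and 4.45 TPM in the cTEC of WT mice and at 43.1, 0.262 and 3.56 TPM in those of Aβ0/0 mice. Its mTEC levels were at 108.3, 30.5 and 67.8 TPM in WT and at 355.5, 25.7 and 25.5 TPM in Aβ0/0 libraries. Replicate 1 of the Aβ0/0 mTEC was 13.9 times the mean of the other 2, both of which were below every WT mTEC library. The mean and the median therefore ordered the genotypes in opposite ways. Avil shares 165 exon bases with Tsfm on the opposite strand, which was at 35.4 to 60.6 TPM in mTEC.

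Sh2d6 (chromosome 6, 72513641 to 72521707, minus strand), an SH2 domain protein, was at 34.4, 11.9 and 12.2 TPM in the cTEC of WT mice and at 85.6, 18.2 and 32.1 TPM in those of Aβ0/0 mice. In mTEC it stood at 133.3, 69.9 and 87.4 TPM in WT and at 298.8, 74.9 and 122.6 TPM in Aβ0/0 libraries. Its mean cTEC level was the highest of the 10 genes after that of Gng13, though it was above Gng13 in replicates 2 and 3 of the Aβ0/0 cTEC. Its subsets overlapped in Aβ0/0 mice but not in WT mice.

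The genes for secreted products were the least abundant. Il25 (chromosome 14, 54932695 to 54935837, plus strand), a cytokine that acts on innate lymphoid cells, was at 3.31, 0.340 and 0.0419 TPM in the cTEC of WT mice and at 4.09, 0 and 0.607 TPM in those of Aβ0/0 mice. The mTEC libraries stood at 11.5, 3.10 and 4.61 TPM in WT and at 19.95, 0 and 1.22 TPM in Aβ0/0 libraries. Il25 was absent from the counts of replicate 2 of both Aβ0/0 subsets, so its fold changes rested on the other libraries.

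Chat (chromosome 14, 32408203 to 32465989, minus strand) was at 2.90, 0.455 and 0 TPM in the cTEC of WT mice and at 4.28, 1.84 and 0 TPM in those of Aβ0/0 mice. Among mTEC libraries it was at 5.84, 4.10 and 5.73 TPM in WT and at 23.2, 0.930 and 3.61 TPM in Aβ0/0 libraries. Its WT mTEC libraries were close to each other and all above those of WT cTEC, whereas the Aβ0/0 mTEC libraries spread on both sides of them.

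Set against the cTEC of the same genotype, all 10 genes were higher in mTEC. The log2 fold change ranged from 1.68 (Pou2f3, SE 0.64) to 3.72 (Gnat3) in WT mice, with a median of 2.62 over the 10 genes and of 0.06 over all 18667 genes tested. In Aβ0/0 mice it ranged from 2.06 (Sh2d6, SE 0.61) to 4.25 (Gnat3), with a median of 2.66 against 0.03 over all genes. Every WT mTEC library was above every WT cTEC library in 8 of 10 genes, where 27.2% of all genes did so. In Aβ0/0 mice this was so in 4 of 10 genes, beside 11.6% of all genes.

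Both subsets were sorted from each pool of mice, and libraries of 1 genotype and number were taken as 1 pool. Within such pools, mTEC had the higher level in 10 of 10 genes in all 3 WT pools and in Aβ0/0 pools 1 and 3. In Aβ0/0 pool 2 it was higher in 8 of 10, with Chat at 0.930 TPM in mTEC and 1.84 TPM in cTEC and Il25 at 0 in both. The summed level of the 10 genes was 986, 518 and 930 TPM in the mTEC and 227, 65.2 and 92.7 TPM in the cTEC of WT pools. In Aβ0/0 pools it was 2550, 747 and 611 TPM in mTEC and 380, 55.7 and 89.7 TPM in cTEC. The cTEC libraries with most tuft cell transcripts were those of pool 1 in both genotypes, as in mTEC.

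In the edgeR fit, 4 of the 10 genes passed the threshold in WT mice (Gng13, Dclk1, Plcb2 and Sh2d6), all higher in mTEC. Of all genes, 26.8% passed in either direction and 18.0% as higher in mTEC. None of the 10 passed in Aβ0/0 mice, where 5.6% of all genes passed and 3.45% as higher in mTEC; 7 had an unadjusted p under 0.05 there, and DESeq2 passed 5. In WT mice DESeq2 passed 7. A fit blocked on the pool passed 6 genes in WT mice (Trpm5, Avil, Gng13, Dclk1, Pou2f3 and Sh2d6), so Plcb2 was lost. It passed 4 in Aβ0/0 mice (Trpm5, Dclk1, Gng13 and Sh2d6). Without the libraries numbered 1, it was 2 in WT (Avil and Sh2d6) and 1 in Aβ0/0 mice (Dclk1). Since the choice of the genes drew on these libraries, nothing is read from these counts.

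**Figure D2:**
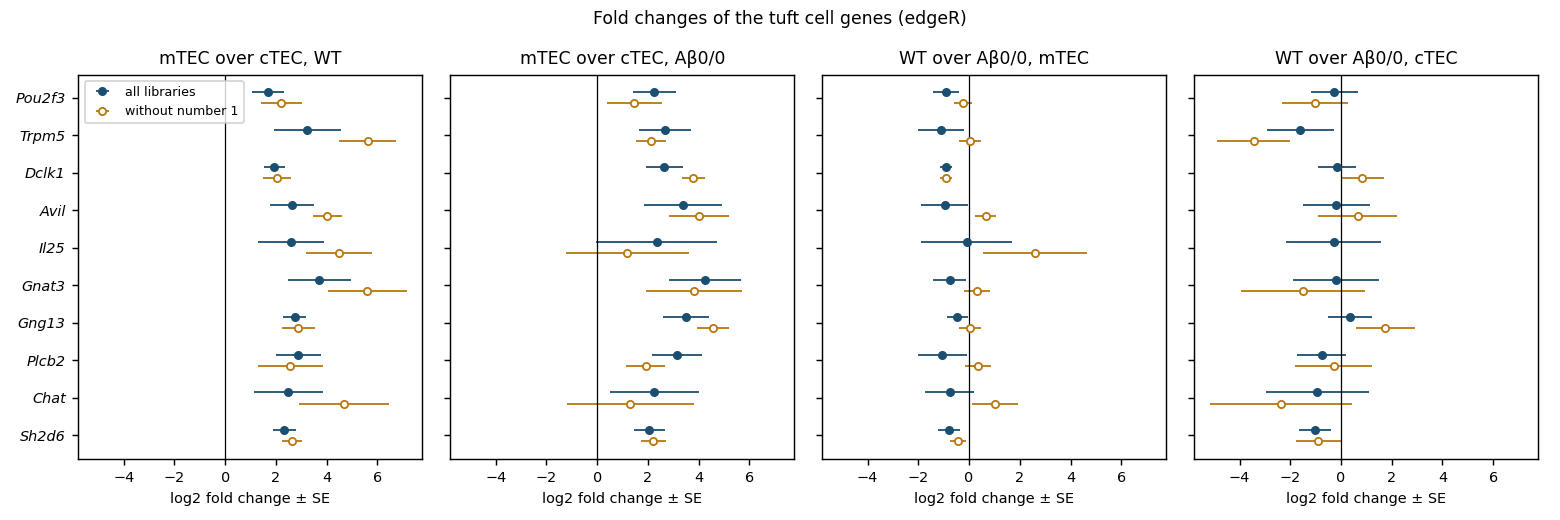
log2 fold change with its standard error (edgeR) of the 10 genes in the 4 comparisons, with all libraries (filled) and without the libraries numbered 1 (open; Il25 had no fit in cTEC). All mTEC over cTEC values lie above 0, whereas in mTEC the WT over Aβ0/0 values lie below 0 with all libraries and above 0 for 7 of 10 genes without number 1.

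Between the genotypes, all 10 genes were lower in WT than in Aβ0/0 mTEC by the fitted mean, with a median log2 fold change of -0.85 and a range from -1.10 (Trpm5, SE 0.91) to -0.10 (Il25, SE 1.79). None passed the threshold in edgeR, where 5.66% of all 18636 genes tested did; 1 had an unadjusted p under 0.05, and DESeq2 passed 1 (Dclk1). WT and Aβ0/0 mTEC were apart in 1 of 10 genes, beside 24.5% of all genes. Without replicate 1 of the Aβ0/0 mTEC, the sign changed in 7 of the 10 genes. Without the libraries numbered 1 of both genotypes, 7 genes were higher in WT, and the median became 0.18.

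In cTEC, 9 of the 10 genes were lower in WT and Gng13 was higher, with a median of -0.28. None passed in edgeR, none by DESeq2 and none at an unadjusted p under 0.05, where 0.0194% of all genes tested by edgeR passed. No gene had separate genotypes in cTEC, beside 6.44% of all genes. The standard errors of these log2 fold changes ran from 0.64 (Sh2d6) to 2.04 (Chat). The genotype effect in mTEC minus that in cTEC was between -0.78 (Gng13, SE 1.03) and 0.57 (Trpm5, SE 1.78). None of the 10 passed in that comparison, by either tool or at an unadjusted p under 0.05, where 0.0103% of all genes passed.

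Levels in the libraries numbered 1 moved together. In Aβ0/0 mTEC, replicate 1 was between 1.66 (Dclk1) and 32.8 (Il25) times the mean of replicates 2 and 3, with a median ratio of 5.59. The median ratio was 1.77 in WT mTEC, 6.67 in WT cTEC and 4.6 in Aβ0/0 cTEC. For 6 of the 10 genes, number 1 was highest in each of the 4 groups, beside 9.03% of the 18442 genes with a mean of at least 10 counts. The exceptions were Pou2f3 in Aβ0/0 cTEC and Plcb2 in WT cTEC, where replicate 2 was highest, and Gnat3 and Gng13 in WT mTEC, where replicate 3 was.

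The other tuft cell lists had this feature to unequal degrees. Number 1 was highest in all 4 groups in 18 of 40 signature genes, 6 of 14 effectors, 3 of 7 transcription factors and 3 of 10 transduction genes, but in 2 of 27 taste receptors. Many receptors were at 0 TPM in all 3 Aβ0/0 cTEC libraries, so that no library was highest there. In Aβ0/0 mTEC alone, number 1 was highest in 25 of the 27 receptors, beside 8377 of all 18442 genes. The summed taste receptor level was 405.8, 55.0 and 52.1 TPM in Aβ0/0 mTEC and 101.3, 43.9 and 123.9 TPM in WT mTEC. Number 1 was the shallowest library of each of the 4 groups, at 21710319 to 28053566 counts. The mTEC marker sum was also highest in number 1 of each group, and number 1 was highest in all 4 groups in 3 of 10 mTEC, 1 of 9 cTEC and 0 of 16 haematopoietic markers. The labels name no batch. The study's sorting record lists both genotypes under each number, and whether they were sorted together was not tested. The part of depth, of sorted cell number or of mTEC content in the tuft cell levels was not tested either.

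**Figure D3:**
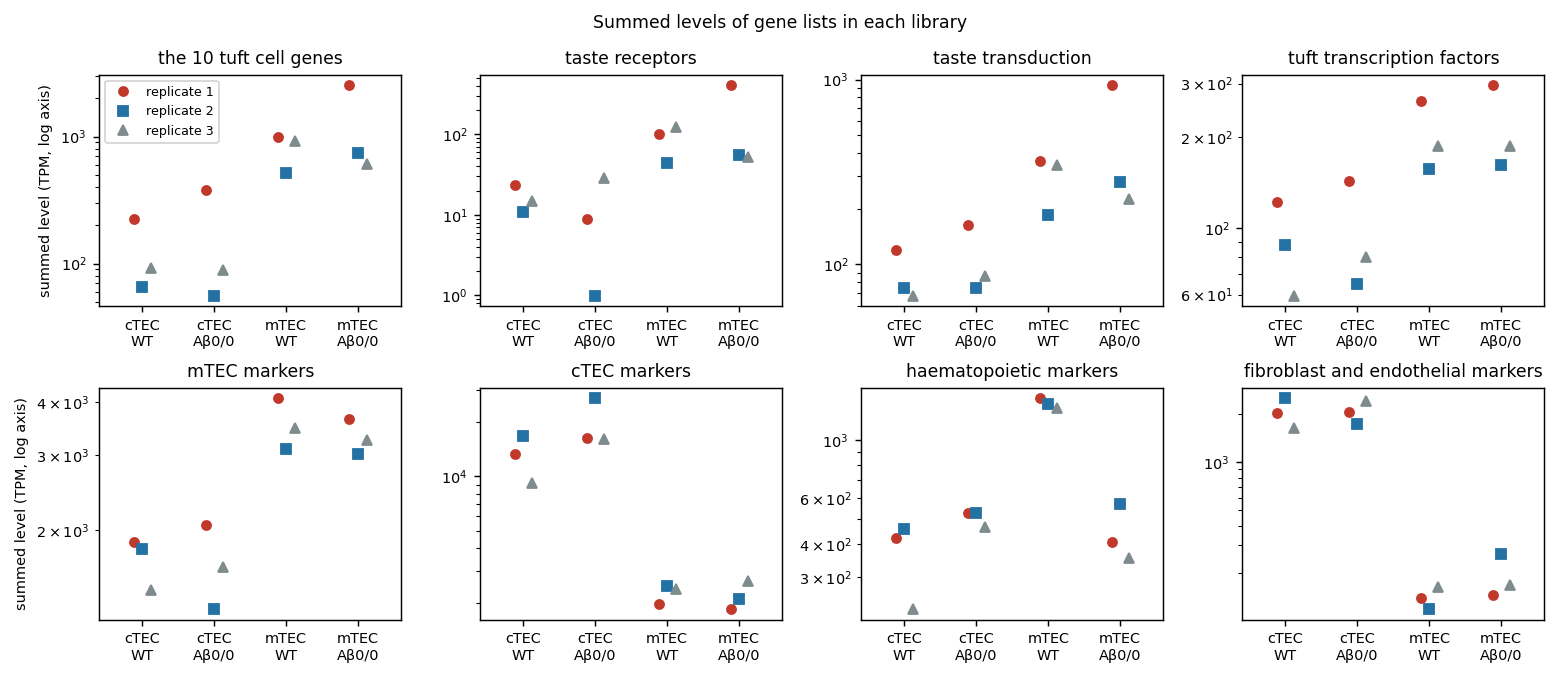
Summed level in TPM (log axis) of the 10 tuft cell genes, 3 other tuft cell lists and 4 marker lists, with 1 point per library coloured by replicate number. Replicate 1 is the highest point of each group for the 10 genes, while haematopoietic markers separate WT mTEC (1318 to 1439 TPM) from Aβ0/0 mTEC (356 to 569 TPM).

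The genes with profiles closest to the average of the 10 were sought by the root mean square difference of centred log2 CPM. Over the 12 libraries, the nearest were Atp2a3, an endoplasmic reticulum calcium pump (difference 0.63), the kinase Bmx (0.71), Mctp1 (0.76) and the kinase Matk (0.78). Bmx and Matk stood in the signature list, and Atp2a3 and Mctp1 in none. Atp2a3 was at 103.4, 33.5 and 42.8 TPM in WT mTEC and at 304.5, 16 and 43.0 TPM in Aβ0/0 mTEC, the same dominance of replicate 1. Of the 10 genes themselves, Plcb2 (0.85) and Sh2d6 (0.87) were nearest to their average and Gnat3 (2.09) was farthest. Over the 6 mTEC libraries alone, the nearest were Cadps2 (0.11), Bmx (0.12), Plk2 (0.21), Utp20 (0.26) and St6gal1 (0.27). Utp20 was at 4.67, 3.91 and 7.22 TPM in WT mTEC and at 8.30, 5.70 and 10.3 TPM in WT cTEC, and the TPM of St6gal1 did not follow its counts (5.97, 2.57 and 3.35 in WT and 7.03, 7.97 and 7.88 in Aβ0/0 mTEC).

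Among the other tuft cell genes, 93 of 112 could be tested between the subsets in WT mice, and 35 passed the threshold, 31 as higher and 4 as lower in mTEC, where 26.8% of all genes passed and 18.0% as higher. Their median log2 fold change was 2.06, against 0.06 over all genes. By list, 3 of 22 taste receptors, 5 of 10 transduction genes, 1 of 7 transcription factors, 8 of 14 effectors and 14 of 40 signature genes were higher. Without the libraries numbered 1, only 11 passed, all as higher, with 10 of them among the 35. The count was 17 without replicate 1 and 22 without replicate 3 of the WT mTEC. In Aβ0/0 mice 10 of 72 tested genes passed, 8 as higher, where 5.6% of all genes passed and 3.45% as higher. Their median was 1.91, and all 10 had also passed in WT mice. That count was 2 (Espn and Spib) without the libraries numbered 1. It was 2 (Espn and Ptprc) without replicate 1 or without replicate 2 of the Aβ0/0 mTEC, 4 without replicate 3, and 1 and 3 without replicate 2 or 3 of the Aβ0/0 cTEC. Espn, which encodes the actin-bundling espin, was the only one of the 10 to pass whichever of the 6 libraries was left out. With the pool as a block, 29 of the 35 calls in WT and 7 of the 10 in Aβ0/0 mice were kept. Those lost in WT were Ffar3, Sucnr1, Tas2r131, Il13, Krt18 and Svil (blocked adjusted p = 0.0539, 0.0552, 0.0539, 0.0507, 0.0657 and 0.0594), and those lost in Aβ0/0 mice were Rgs21, Tas2r118 and Ptprc (0.0761, 0.117 and 0.0643).

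**Figure D4:**
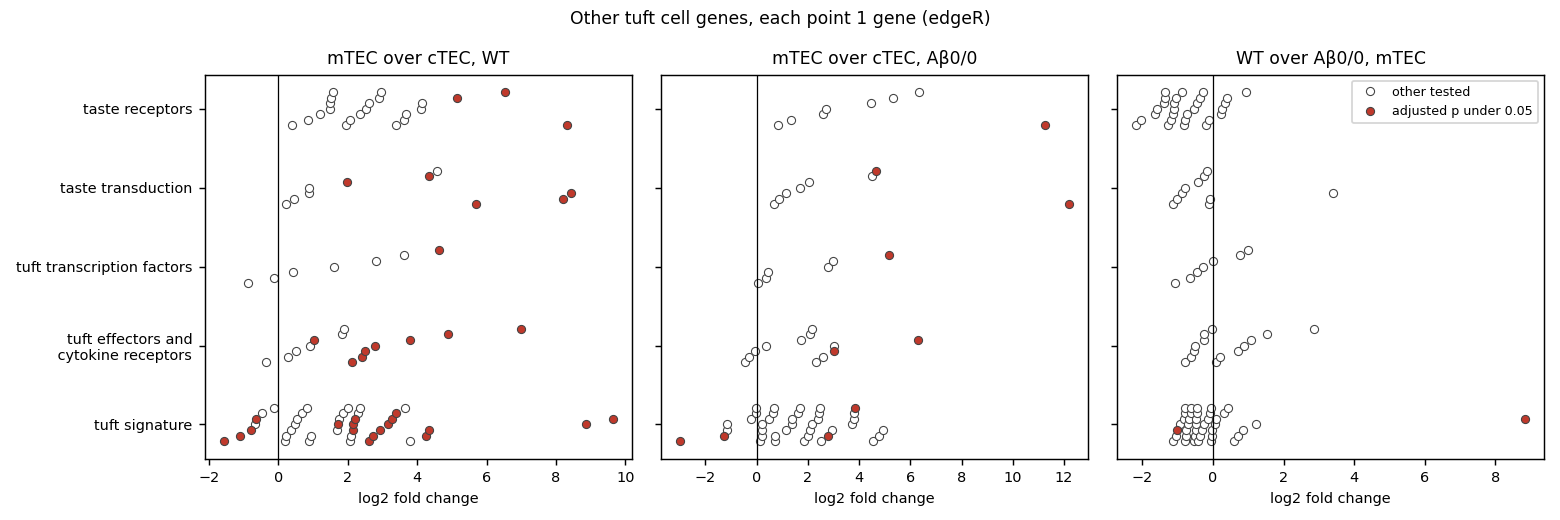
log2 fold change (edgeR) of each tested gene of the 5 other tuft cell lists, with genes past an adjusted p of 0.05 filled. Most points lie right of 0 for mTEC over cTEC, and most left of 0 for WT over Aβ0/0 mTEC (74 of 99), where only Smpx and Svil are filled; values above 8 are genes with no count in the lower group and are no bound.

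Of the taste receptors tested, 3 of 22 were higher in WT mTEC, and of the transduction genes 5 of 10. Gnb3, the β subunit of the taste G protein, was at 152.8, 64.5 and 150.4 TPM in WT mTEC and at 16, 0.740 and 4.97 TPM in WT cTEC (log2 fold change 4.34, SE 0.93, adjusted p = 0.0108, edgeR). In Aβ0/0 mice it was at 496.6, 135.0 and 93.9 TPM in mTEC and at 23.4, 2.59 and 8.32 TPM in cTEC (4.64, SE 0.85, adjusted p = 0.0247). The subsets of Gnb3 did not overlap in either genotype, but in Aβ0/0 mice it did not pass without replicate 1 or 2 of the mTEC or replicate 2 or 3 of the cTEC. Rgs21, a regulator of G protein signalling in taste cells, was at 3.51, 0.527 and 6.04 TPM in WT mTEC, and 13 counts remained in the 3 WT cTEC libraries together (adjusted p = 0.0297). In Aβ0/0 mice it had no count in cTEC and 18.7, 2.05 and 2.76 TPM in mTEC (adjusted p = 0.0275, edgeR). There the call was lost whichever single library was left out.

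The bitter receptor Tas2r118 was at 5.01, 2.18 and 11.98 TPM in WT mTEC and at 35.1, 7.36 and 7.32 TPM in Aβ0/0 mTEC. It passed in both genotypes (adjusted p = 0.0147 and 0.0326), with 3 counts in all WT cTEC libraries and none in those of Aβ0/0 mice. In Aβ0/0 mice the call was lost whichever single library was left out. Tas2r131, another bitter receptor, and Tas1r1, a subunit of the umami receptor, passed in WT mice (adjusted p = 0.00799 and 0.0403). The highest receptors by mean TPM in mTEC were Tas2r105 and Tas2r108. Tas2r105 was at 20.8, 9.50 and 25.1 TPM in WT and at 90.0, 4.39 and 4.51 TPM in Aβ0/0 mTEC, and neither receptor passed between the subsets in WT mice. Reads of closely related receptors may be divided between them, so single receptors are uncertain.

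Of receptors for metabolites, the short-chain fatty acid receptor Ffar3 and the succinate receptor Sucnr1 had no count in WT cTEC and were higher in WT mTEC (adjusted p = 0.0103 and 0.00814). Ffar3 was at 2.59, 0.419 and 0.982 TPM in WT mTEC, the most in replicate 1. For Sucnr1, the level in WT mTEC was at least 11.8-fold higher against a floor of 3 counts per library. Sucnr1 was at 0.612, 1.55 and 1.44 TPM in WT mTEC and at 0.333, 0 and 0 TPM in Aβ0/0 mTEC. Its genotypes did not overlap, but the difference did not pass (adjusted p = 0.395). Rgs2, the other abundant transduction gene, was at 78.0, 51.5 and 63.4 TPM in WT and at 181.5, 78.9 and 81.9 TPM in Aβ0/0 mTEC without passing (adjusted p = 0.23).

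Among transcription factors, Spib, an ETS factor, passed in both genotypes, though in Aβ0/0 mice not without replicate 1 or 2 of the mTEC or replicate 2 of the cTEC. It was at 169.3, 91.6 and 113.1 TPM in WT mTEC and at 8.29, 6.71 and 1.68 TPM in WT cTEC (log2 fold change 4.62, SE 0.45, adjusted p = 0.000645). Aβ0/0 mTEC had 172.4, 89.5 and 82.0 TPM, against 10.7, 1.43 and 0.753 TPM in Aβ0/0 cTEC (adjusted p = 0.0187). The log2 fold change of WT over Aβ0/0 mTEC was 0.01 (SE 0.25). Sox9 was expressed in all groups, with 43.8 to 57.3 TPM in WT mTEC and 37.9 to 70.8 TPM in WT cTEC (log2 fold change -0.12, SE 0.20, adjusted p = 0.718).

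Of the 14 effectors tested, 8 were higher in WT mTEC, among them 3 enzymes of eicosanoid synthesis (Ptgs2, Hpgds and Ltc4s). Ptgs2, the inducible cyclooxygenase, was at 49.5, 23.2 and 17.7 TPM in WT mTEC and at 1.72, 5.31 and 0.155 TPM in WT cTEC (adjusted p = 0.0188). Hpgds, the prostaglandin D synthase of haematopoietic cells, was at 27.9, 19.8 and 21.6 TPM in WT mTEC and at 5.63, 2.81 and 1.91 TPM in WT cTEC (adjusted p = 0.000899). Ltc4s, the leukotriene C synthase, passed in both genotypes, in Aβ0/0 mice losing the call when any library but replicate 1 of the cTEC was left out, and was at 83.6, 46.0 and 64.8 TPM in WT mTEC. The acetylcholine genes were less alike. Slc18a3, the vesicular acetylcholine transporter, was at 1.91, 0.503 and 1.19 TPM in WT mTEC and at 1.31, 0 and 0 TPM in Aβ0/0 mTEC, with 1 count in the WT cTEC libraries (adjusted p for mTEC over cTEC in WT = 0.00674). Ache, which degrades acetylcholine, had the highest mean TPM of the effectors over the 6 mTEC libraries and was not confined to mTEC, with 34.7 to 89.1 TPM in WT cTEC and 98.0 to 145.3 TPM in WT mTEC. In Aβ0/0 mTEC it was at 52.7 to 80.6 TPM, below every WT mTEC library, without passing (adjusted p = 0.195).

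Il13, a type 2 cytokine, was at 11.5, 6.61 and 6.35 TPM in WT mTEC and at 0, 0.548 and 0.255 TPM in WT cTEC (log2 fold change 4.90, SE 1.14, adjusted p = 0.0154). In Aβ0/0 mTEC it was at 1.69, 1.36 and 0.0407 TPM, below every WT mTEC library. That genotype difference did not pass over all genes (log2 fold change 2.85, SE 1.26, adjusted p = 0.35).

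In the signature list, Espn and Lrmp passed in both genotypes (Lrmp in Aβ0/0 mice losing the call when any library but replicate 3 of the mTEC was left out), and the microvillus protein villin (Vil1) and the keratin Krt23 passed in WT mice. Vil1 was at 17.0, 10.8 and 9.21 TPM in WT mTEC and at 0.493, 1.64 and 0.0527 TPM in WT cTEC (log2 fold change 4.24, SE 0.91, adjusted p = 0.0109). Krt23 was at 47.2, 49.4 and 37.1 TPM in WT mTEC and at 2.36, 2.90 and 1.73 TPM in WT cTEC (4.35, SE 0.29, adjusted p = 0.000217). Cwh43 had no count in WT cTEC and was at least 32.7-fold higher in WT mTEC (adjusted p = 0.00707). The 4 genes that were lower in mTEC were Ptprc, Nebl, Krt18 and Svil. Ptprc encodes the leukocyte antigen CD45, which the sort used to remove cells, and Krt18 is a keratin common to simple epithelia. Krt18 and Tmem176b were the most abundant signature genes, and neither was low in cTEC (1612 to 3116 and 2398 to 2577 TPM in WT).

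Between WT and Aβ0/0 mTEC, 2 of 99 tested tuft cell genes passed, both of the signature list, a lower share than the 5.66% of all genes. With the replicate number as a block, 0 of the 99 and 0 of all genes passed in edgeR, so both calls below rest on the fit without it. In that unblocked fit, 11 of the 99 had an unadjusted p under 0.05. Smpx, a small muscle protein, was at 3.82, 2.88 and 4.14 TPM in WT mTEC and had no count in Aβ0/0 mTEC, at least 19.5-fold lower (adjusted p = 0.0352, edgeR). Smpx had no count in cTEC of either genotype. Svil, the actin-binding supervillin, was at 35.5, 43.8 and 53.4 TPM in WT and at 69.8, 95.7 and 77.6 TPM in Aβ0/0 mTEC (log2 fold change -1.02, SE 0.20, adjusted p = 0.036). Both genes had separate genotypes, and in neither was number 1 the highest library of both groups.

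Over the 5 lists, 74 of the 99 genes were lower in WT and 25 higher, with a median log2 fold change of -0.46 against 0.00 over all genes. This leaning rested on 1 library. Without replicate 1 of the Aβ0/0 mTEC, 66 were higher in WT and 33 lower, the median was 0.45, and 15 passed, 14 of them as higher in WT, 8 of these bitter receptors, where 2377 of all genes passed (12%). When any other mTEC library was left out, none passed, and without the libraries numbered 1 none passed. In cTEC, 0 of 65 tested genes passed in edgeR, 2 had an unadjusted p under 0.05, and DESeq2 passed 2. For the genotype effect in mTEC minus that in cTEC, 0 of 100 passed, 6 had an unadjusted p under 0.05, and DESeq2 passed 6.

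Haematopoietic markers moved with genotype in the same mTEC libraries. Of 16 markers, 5 were higher in WT mTEC (Coro1a, Laptm5, Cd48, Fcer1g and Itgax) and none was lower, beside 5.66% of all genes. No gene passed with the replicate number as a block. The summed level of the 16 markers was 1318 to 1439 TPM in WT and 356 to 569 TPM in Aβ0/0 mTEC. Most of this sum came from Cd52 and Laptm5. Cd52 was at 822.8 to 835.6 TPM in WT and 115.5 to 395.9 TPM in Aβ0/0 mTEC. Laptm5 was at 283.4 to 420.5 TPM in WT and 133.7 to 153.1 TPM in Aβ0/0 mTEC. Cd48 and Itgax had no count in Aβ0/0 mTEC, whereas Ptprc was at 3.70 to 4.79 TPM in WT and 2.35 to 4.46 TPM in Aβ0/0 mTEC. Replicate 1 had the highest sum of these markers in WT mTEC (1439 TPM) and the middle one in Aβ0/0 mTEC (408 TPM). The part of haematopoietic cells in the genotype differences of Smpx, Il13 and Sucnr1 was not tested. Between the subsets in WT mice, 5 of the 16 markers passed as higher in mTEC and 4 as lower. Of all genes, 26.8% passed there and 18.0% as higher. The part of such cells in the subset differences of tuft cell genes was not tested either.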

How the data were processed

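Poly-A RNA of sorted TEC was amplified by the authors with the SMART-Seq v4 chemistry for low input and sequenced in paired ends on an Illumina HiSeq. Per the labels, reads were handled with bcl2fastq 2.20.0, Trim Galore and kallisto 0.43 (mm10). The estimated counts and the TPM per transcript were deposited by the authors as kallisto wrote them, and the deposited rlog values (log2 scale) were made by them with DESeq2 from all 12 libraries. Kallisto divides reads between transcripts by likelihood, so shares of transcripts are estimates, and the kit does not mark strand.

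Of 109282 transcripts, 107987 matched GENCODE M21 (GRCm38), and the rest held 0.45% to 0.512% of the counts. Estimated counts were summed per gene and rounded. Tests used edgeR 4.0.16 (quasi-likelihood, robust, TMM, filterByExpr) in R 4.3.3 on the libraries of each comparison, with Benjamini-Hochberg values over all genes and a threshold of 0.05. DESeq2 1.42.0 was the alternative. The fits were also run on simulated data with large changes in 200 well-expressed genes. Small changes, changes at low levels and a single dominant library were not simulated. p-values measure the spread between pools. Tables and figures used Python with pandas and numpy, and promoters came from RefSeq.

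The members and lists were chosen with earlier results of these data known. Of 114 listed genes, 112 matched. Named were the 10 members, list genes past the threshold between genotypes (at most 8 per list and direction), the 4 largest changes per list and direction between subsets, the 2 most abundant genes per list, and the 5 nearest profiles (prior count 1). One gene that the rule names is not reported here.

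The study's sorting record gives both subsets for each pool. Libraries of 1 genotype and number were thus taken as coming from the same mice, which the labels do not state. The correlation of their deviations from group means was 0.189, 0.0255 and 0.0729 in WT and 0.236, 0.0825 and 0.0571 in Aβ0/0 pools. The reported subset fits had no block, since the study states none, and the pool as a replicate block was the alternative. The record lists WT and Aβ0/0 yields under one number without saying that they were sorted together, so genotype fits had no block either, and the blocked values are given beside them.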

Additional observations from a re-analysis of the deposited data

How the results depend on the processing

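Counts of other tuft cell genes past the threshold depended on single libraries and on the test. For WT against Aβ0/0 mTEC the count of 2 became 1 with library totals only, 4 with DESeq2, and 0 without a filter on low counts, with a mean of at least 10 counts, with edgeR on all 12 libraries, with a replicate block and without the libraries numbered 1. In this comparison 1054 of all genes passed, but 27 without a filter, 11 with a mean of at least 10 counts, 20 on all 12 libraries, 1782 with DESeq2, 0 with the replicate block, 0 without the libraries numbered 1 and 0 to 2377 when 1 library was left out. Leaving out 1 library at a time gave 0 to 15. For cTEC the count of 0 became 2 with DESeq2, and leaving out 1 library gave 0 to 0. For mTEC over cTEC in WT, 35 became 16 with edgeR on all 12 libraries and 11 without those numbered 1, and leaving out 1 library gave 17 to 47. In Aβ0/0 mice, 10 became 24 with DESeq2, 19 on all 12 libraries and 2 without those numbered 1, and leaving out 1 library gave 1 to 9. The genotype effect in mTEC minus cTEC went from 0 to 6 with DESeq2, and leaving out 1 library gave 0 to 0. Over all genes, calls for mTEC over cTEC went from 4997 to 2760 on all 12 libraries and 1135 without those numbered 1 in WT, and from 878 to 1819 and 153 in Aβ0/0 mice, where DESeq2 gave 2042. DESeq2 raised those for cTEC from 3 to 61 and those for the difference of effects from 2 to 268. The cause was not tested.

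The setting without the libraries numbered 1 was chosen after seeing the data. With the replicate block, 31 genes passed in WT (29 shared with the 35) and 10 in Aβ0/0 mice (7 shared). It also raised the members that passed in Aβ0/0 mice from 0 to 4 and in WT from 4 to 6, with Plcb2 lost in WT. Between genotypes the deviations of same-numbered libraries correlated at 0.217, 0.0711 and 0.0444 in mTEC and at 0.233, -0.0358 and 0.0615 in cTEC. These values were near those within pools. Libraries of different genotype were not taken as pairs, since the record states no shared sort. All 10 members had both mTEC means above both cTEC means in TPM, in rlog values and on protein-coding transcripts alone. Of the member fold changes under the alternatives, the sign changed in 18 of 140 for mTEC genotypes, 23 of 139 for cTEC genotypes, 0 of 140 and 1 of 140 for the subsets in WT and Aβ0/0 mice, and 31 of 190 for the difference of effects. Of the members near 1 TPM, Il25 had 26 counts and Chat 71.4 counts in 1 Aβ0/0 mTEC library each. With 3 pools per group such levels are uncertain, and a limit of detection was not tested.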
